A study of Mus musculus with 6 samples.

Results

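The NK cell receptors described here are 7 genes, Ncr1, Klrb1c, Klre1, Klra4, Klra7, Klra8 and Klrg1, taken by symbol from the 32285 genes of the single-cell count tables. Their levels were read in marker-gated natural killer (NK), gamma-delta T, CD8 T and CD4 T cells, and none of the 7 genes was used to gate any class. The 4 classes held 12889 of the 51633 cells with at least 250 genes and at most 5% mitochondrial unique molecular identifiers (UMIs, one per captured transcript).

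The series holds 6 libraries, each from 1 female C57BL/6 mouse that was 6 to 8 weeks old when KPCA ovarian cancer cells, a mouse line proficient in homologous recombination, were injected into the ovarian bursa. The control mouse received solvent and rat IgG. The 2DG mouse received 2-Deoxy-D-glucose from day 9, a glucose and mannose analog used in the study against branched N-glycans. The 2FF mouse received a fucose analog that lowers fucosylation, named 2F-Peracetyl-Fucose in the labels and 2-fluoro-L-Fucose in the study. In the study's 2FF group the tumor cells were pretreated with 2FF for 3 days before injection. Whether those of the 2FF plus anti-PD-L1 mouse were pretreated is not stated. The anti-PD-L1 mouse received the checkpoint antibody after day 9, and each combination mouse (2DG plus anti-PD-L1, or 2FF plus anti-PD-L1) received the antibody with that inhibitor. The mice were sacrificed on day 30. All groups carried KPCA tumors, and the 2DG and 2FF comparisons share their control and anti-PD-L1 libraries. The study's methods take the cells from tumors, but in the labels the tissue is lymph node and the series text speaks of young and aged mice. With 1 mouse per group no group has a spread of its own, and no test was run. Comparisons of cell classes, and of cells with and without a receptor UMI, are given by the number of libraries on each side. The 95% intervals below, exact Poisson for levels and ratios and Clopper-Pearson for shares, cover counting error only. The Poisson intervals take each UMI as independent, although a cell can hold several UMIs of a gene. They leave out the sampling of cells. A log2 ratio is of CPM + 5, where CPM is the UMIs of a gene per 1000000 UMIs of the class, and its interval is of the CPM ratio without the added 5.

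NK cells read their targets through paired sets of activating and inhibitory receptors, and which receptors a cell carries is partly random and partly set by its maturation. Ncr1 encodes NKp46, an activating receptor that defines NK cells and related innate lymphoid cells, and Klrb1c encodes NK1.1, an activating receptor used to identify NK cells in C57BL/6 mice. The Ly49 family binds MHC class I and its viral mimics. Klra4 encodes Ly49D and Klra8 encodes Ly49H, a receptor for a cytomegalovirus protein, and both signal through the adapter DAP12 (Tyrobp), whereas Klra7 encodes the inhibitory Ly49G. Klre1 encodes a lectin-like protein that pairs with Klri1 or Klri2. Klrg1 encodes an inhibitory cadherin receptor of mature NK cells, effector CD8 T cells and activated regulatory T cells.

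On the GRCm38 build, Ncr1 (ENSMUSG00000062524) lies on chromosome 7 from 4337724 to 4345164, on the plus strand. The other 6 genes lie on chromosome 6 between 122270596 and 130233322, and Klra4, Klra8 and Klra7 lie within 190 kb of each other on the minus strand. Klra4 (ENSMUSG00000079852) runs from 130043731 to 130067271, Klra8 (ENSMUSG00000089727) from 130115226 to 130129898 and Klra7 (ENSMUSG00000067599) from 130218605 to 130233322. Klrg1 (ENSMUSG00000030114) runs from 122270596 to 122282882, Klrb1c (ENSMUSG00000030325) from 128778485 to 128789215, both on the minus strand, and Klre1 (ENSMUSG00000050241) from 129577905 to 129585827 on the plus strand. All 7 are annotated as protein coding.

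The Ly49 promoters are shown because the 3 Ly49 genes differed in which T cells they were read in. Each RefSeq window (GRCm38.p6) holds 250 bases before and 50 after the annotated start, written 5′ to 3′ on the gene's strand. In Klra4 and Klra8 the capitals mark the longest run that the pair shares, of 37 bases, and in Klra7 the longest run that it shares with Klra4, of 17 bases.
Klra4 (chr6:130067222-130067521, minus): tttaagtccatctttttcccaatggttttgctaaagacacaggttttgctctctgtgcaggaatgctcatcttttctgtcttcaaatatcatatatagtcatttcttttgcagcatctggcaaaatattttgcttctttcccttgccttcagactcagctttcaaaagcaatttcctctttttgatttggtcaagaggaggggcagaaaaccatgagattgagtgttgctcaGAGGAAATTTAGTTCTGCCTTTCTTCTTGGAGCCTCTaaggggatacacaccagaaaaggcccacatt
Klra8 (chr6:130129849-130130148, minus): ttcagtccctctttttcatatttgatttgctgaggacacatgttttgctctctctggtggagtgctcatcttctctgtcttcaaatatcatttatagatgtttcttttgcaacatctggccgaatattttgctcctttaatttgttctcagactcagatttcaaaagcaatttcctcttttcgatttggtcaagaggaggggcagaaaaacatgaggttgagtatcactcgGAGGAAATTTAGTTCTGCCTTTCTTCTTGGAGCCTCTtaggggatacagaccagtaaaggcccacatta
Klra7 (chr6:130233273-130233572, minus): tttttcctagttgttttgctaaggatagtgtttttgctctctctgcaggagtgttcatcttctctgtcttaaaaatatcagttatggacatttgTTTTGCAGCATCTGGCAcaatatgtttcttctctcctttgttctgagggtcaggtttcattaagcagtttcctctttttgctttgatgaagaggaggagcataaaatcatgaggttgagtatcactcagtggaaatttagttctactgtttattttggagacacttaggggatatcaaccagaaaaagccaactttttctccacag

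Aligned end to end, the Klra4 and Klra8 windows matched at 259 of 300 bases (86.3%), Klra4 and Klra7 at 230 (76.7%) and Klra7 and Klra8 at 231 (77%). The Ncr1 window is given for contrast, with matches to the RUNX motif TGTGGT, or its reverse complement, in capitals.
Ncr1 (chr7:4337474-4337773, plus): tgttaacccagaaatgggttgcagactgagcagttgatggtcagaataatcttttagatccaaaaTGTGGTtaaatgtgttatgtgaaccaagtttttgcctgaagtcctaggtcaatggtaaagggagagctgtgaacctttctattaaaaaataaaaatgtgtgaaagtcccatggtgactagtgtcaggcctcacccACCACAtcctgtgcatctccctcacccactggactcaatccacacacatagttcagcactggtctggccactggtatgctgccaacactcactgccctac

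TGTGGT was found 2 times in the Ncr1 window and in none of the 3 Ly49 windows, and 16.8% of the 32851 mouse promoter windows hold it on either strand. The T-box letters TCACAC were found 1 time in the Ncr1 window and in none of the Ly49 windows (14.5% of all windows). CAGGAAGT (ETS, 3.33% of all windows) and TGAGTCA (AP-1, 5.2%) were in none of the 4. No base of these windows lay in matches of 2 motifs, and a match is a description of the letters only.

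How well reads tell the genes apart rests on the transcripts rather than on these windows. Of all stretches of 60 bases in the annotated Klra8 transcripts, 27.3% also occur in another gene, foremost Klra14-ps, Klra9 and Klra10. Within the last 500 bases of each transcript, which this 3′ assay reads most, the shared part was 6.35% for Klra8, 17.3% for Klra7 (with Klra13-ps), 16.2% for Klrb1c (with Gm44511, Klrb1a and Klrb1b) and 2.49% for Klra4 (with Klra1). It was 0% for Ncr1, Klre1 and Klrg1. The levels of Klra8, Klra7 and Klrb1c are uncertain to that extent.

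The libraries held 8598 to 10412 barcodes and 61859753 to 73885214 UMIs, and 7703 to 9222 cells passed the limits. Any 2 libraries shared 16 to 34 barcodes. UMIs of the tumor keratin genes Krt8 or Krt18 were found in 0.804% to 2.71% of passing cells. The NK gate held 55, 332, 250, 349, 516 and 280 cells in the order control, 2DG alone, 2FF alone, anti-PD-L1 alone, 2DG with anti-PD-L1 and 2FF with anti-PD-L1, which is kept throughout. In the control library it made up 0.606% of passing cells (0.457% to 0.788%), against 2.71% to 5.72% in the treated libraries. The CD8 T gate held 123, 1317, 1974, 1590, 1701 and 1109 cells, the CD4 T gate 186, 871, 538, 567, 537 and 463, and the gamma-delta T gate 11, 38, 21, 11, 25 and 25. The neutrophil genes S100a8, S100a9 and Retnlg stood apart in the control library, summing to 432 CPM in its NK gate and 640 in its CD8 T gate, against 3.78 to 36.1 and 4.07 to 173 in the treated libraries. Their part in the results below was not tested.

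The NK gate was mixed. A UMI of at least 1 of the NK markers held out of the gate (Eomes, Txk, Gzma, Xcl1, Sh2d1b1 and S1pr5) was found in 60%, 83.4%, 70.8%, 86.5%, 85.3% and 78.6% of its cells. The remaining cells were largely a group rich in MHC class II transcripts. Cells with at least 5 UMIs of H2-Aa, H2-Ab1 and H2-Eb1, which encode class II chains that present antigen to CD4 T cells, made up 40% (27% to 54.1%), 23.5%, 39.2%, 17.8%, 19% and 23.9% of the gate. They numbered 425 of 1782 cells. These class II cells were larger, with a median of 7919 to 12625 UMIs against 4707 to 6355 in the rest, so that they gave 59.8% of the control NK UMIs but 28% to 51.9% of those in the treated libraries. A UMI of any of the 7 receptor genes was found in 12.9% to 20.4% of class II cells and in 78.8% to 99.1% of the rest. The held-out markers behaved alike, at 11.9% to 33.3% and 84.8% to 99.5%. Among the rest, the low end of both was the control library. The treated libraries stood at 97.2% to 99.1% for the receptor genes and 98.6% to 99.5% for the markers. In the other gates class II cells made up 0% to 4.76%. The class II limit was chosen after the values were seen. Receptor levels, their ratios between libraries, the Ly49 shares and the Klrg1 split are therefore given for the whole gate and again without these cells. The 1357 NK cells with under 5 class II UMIs (33, 254, 152, 287, 418 and 213 cells) are called class II-low NK cells below. The shares of all UMIs that fell in NK cells and the correlations with other genes are for the whole gate only.

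Ncr1, Klrb1c, Klra4 and Klra8 were transcripts of NK cells in these samples. Of their UMIs in all passing cells, 74.2%, 74.1%, 74.6% and 76.8% fell in the NK gate. The 4 classes together held 78.4%, 78.5%, 77.9% and 79.9%, and the rest lay in passing cells outside these classes. All 7 genes were above the CD8 T level in 6 of 6 libraries, where 17.6% of all genes were. Against CD4 T cells 6 of 7 were (16.8% of all genes) and against gamma-delta T cells 5 of 7 (14.2% of all genes). For genes known as NK receptors this is a description. The exceptions were Klrg1 and Klra7 against gamma-delta T cells and Klrg1 against CD4 T cells. In class II-low NK cells all 7 were above gamma-delta T cells and CD8 T cells in 6 of 6 libraries, and 6 of 7 above CD4 T cells. The share of all genes is not given for class II-low cells.

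The activating receptor Ncr1 was read at 85.4, 186, 173.5, 193, 223 and 184 CPM in the NK gate. The class II-low NK values were 213, 286, 345, 267, 297 and 275 CPM, and 45.5% to 74.3% of those cells held a UMI. Ncr1 was lowest in the control library on both counts, and highest in 2DG plus anti-PD-L1 in the whole gate but in 2FF among class II-low cells. It reached 1.78 CPM at most in CD8 T cells and 2.47 in CD4 T cells, levels also seen in B cells (up to 3.01) and macrophages (up to 1.4), which should lack it. Klrb1c stood at 210, 462, 323, 561, 535 and 488 CPM in the NK gate and at 523, 714, 650, 776, 732 and 724 in class II-low NK cells. In all treated libraries 88.8% to 90.6% of the class II-low cells held a Klrb1c UMI, against 54.5% in the control library, where such cells were fewest.

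The activating Ly49 genes followed. Klra4 was read at 115, 198.5, 184, 257, 337.5 and 283 CPM in the NK gate and at 286, 311, 368, 353, 459 and 416 CPM in class II-low NK cells. Klra8 was read at 117, 183, 123, 225, 305 and 268 CPM, and at 292, 286, 251, 311, 418 and 401 CPM in class II-low NK cells. For both, the pair of combination libraries had the highest levels in either count of NK cells. No Klra4 or Klra8 UMI was found in 131 gamma-delta T cells, which by a limit of 3 counts, used here for counts of 0, allows up to 2.29% of cells with a UMI and 4.22 CPM over all gamma-delta UMIs. CD8 T cells held 0.45 to 2.41 CPM of Klra4 and 0 to 2.18 of Klra8, within the B cell and macrophage range of 0 to 5.56 CPM over both genes.

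Among the inhibitory receptors, Klra7 was read at 132, 260, 183, 217, 270 and 293.5 CPM in the NK gate and at 322, 404, 366, 302, 371 and 430 CPM in class II-low NK cells. Unlike Klra4 and Klra8, but like Klra1 and Klra3 (up to 177 and 80.5 CPM), it was also read in gamma-delta T cells, at 16.6, 66.8, 304, 129, 51.2 and 33.9 CPM. The 304 CPM of the 2FF library exceeded its whole NK gate, but rested on 30 UMIs in 5 of 21 cells. In CD8 T cells Klra7 stood at 17.4, 11.5, 5.55, 4.08, 8.75 and 7.32 CPM, in 1.32% to 4.07% of cells, above its levels in B cells (up to 1.28 CPM) and macrophages (up to 1.69) in each library.

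Klre1 was shared between NK and CD8 T cells. Its NK levels were 185.5, 302, 255, 299, 370 and 398 CPM, or 450, 464, 498, 410, 500 and 585 CPM in class II-low NK cells. CD8 T cells held 172, 145.5, 226.5, 123, 193 and 185 CPM, and 39%, 43.8%, 55.9%, 41.4%, 49.9% and 55.2% of them had a UMI. The whole NK gate was above CD8 T cells within each library, by a log2 ratio of 0.11 to 1.24, though their ranges overlapped. The class II-low NK range, 410 to 585 CPM, lay above the CD8 T range of 123 to 226.5 CPM. Because CD8 T cells were many, 57.7% of all Klre1 UMIs fell in them and 21.8% in NK cells. Gamma-delta T cells held 33.1 to 161 CPM, CD4 T cells with a Foxp3 UMI 0 to 10.1 CPM and CD4 T cells without one 22.3 to 72.4 CPM. B cells and macrophages held up to 3.85 and 2.29 CPM, and 0% to 1.87% of them had a UMI. Whether those UMIs came from free RNA or from doublets was not tested.

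Klrg1 had its highest level outside NK cells. CD4 T cells with a Foxp3 UMI, the transcription factor of regulatory T cells, held 137, 233, 261, 322, 208 and 283 CPM, and 45.8% to 66.7% of them had a UMI. The NK gate held 34.2, 60.3, 48.1, 98.2, 70.1 and 62.4 CPM and class II-low NK cells 79, 93.8, 92.9, 137, 96 and 93.2 CPM. NK cells were below Foxp3-positive CD4 T cells in 6 of 6 libraries, with log2 ratios of -2.32 to -1.5 for the whole gate. The ranges of the 2 classes did not overlap for the whole gate, whereas the highest class II-low value, in anti-PD-L1, came to the level of the control Foxp3-positive cells. The next in order were gamma-delta T cells (0 to 81.2 CPM), CD8 T cells (10.6 to 15.2 CPM) and CD4 T cells without Foxp3 (7.6 to 25.2 CPM), whose ranges overlapped each other, and the gamma-delta range overlapped that of NK cells. Of all Klrg1 UMIs in passing cells, 35.6% fell in CD4 T cells, 15.6% in NK cells and 14.8% in CD8 T cells. The 4 classes together held 66.5%, and the rest lay in passing cells outside them.

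**Figure D1:**
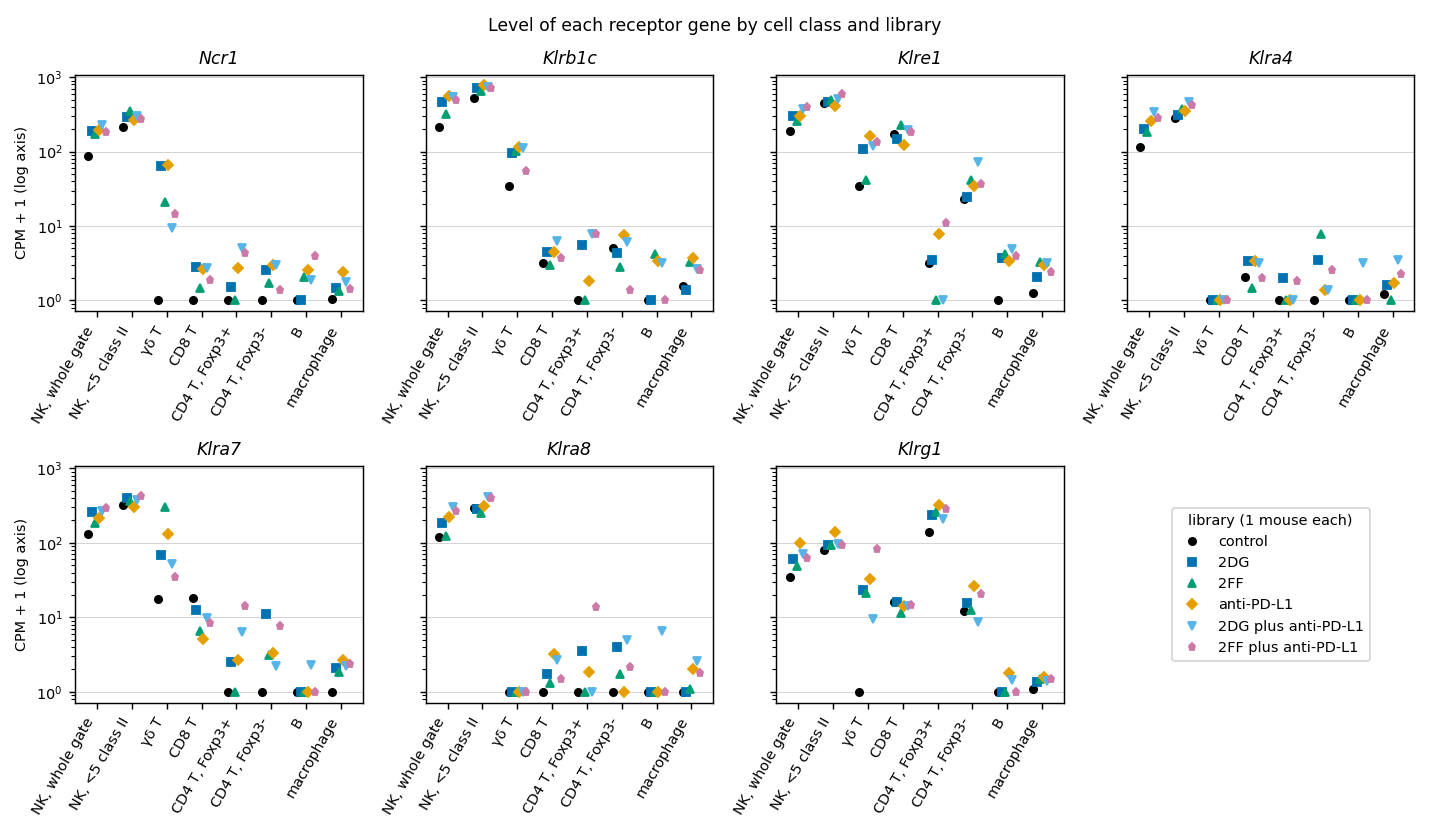
Level of each receptor gene (CPM plus 1, log axis) in 8 cell classes, 1 point per library, 1 mouse each. Ncr1, Klrb1c, Klra4 and Klra8 stand high in NK cells alone or in NK and gamma-delta T cells, Klre1 also in CD8 T cells, and Klrg1 is highest in CD4 T cells with Foxp3 (137 to 322 CPM).

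T cells with a UMI of the NK-type genes Ncr1, Klrb1c, Klra4 or Klra8 were rare among CD8 T cells (118 of 7814, 1.51%) and CD4 T cells (35 of 3162, 1.11%). The doublet caller Scrublet marked 24.6% of these CD8 T cells against 2.74% of the others, and 40% of these CD4 T cells against 4.13% of the others. Among gamma-delta T cells 29 of 131 (22.1%) held such a UMI, and Scrublet marked 3.45% of them against 4.9% of the rest.

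Genes with a like pattern over the 24 values of 6 libraries and 4 classes were named by Pearson's r of log2(CPM + 5), as a description, since values of 1 library share its depth and those of 1 class its gate. Klra4 and Klra8 were most like each other (r = 0.991), Eya1 (0.991 and 0.996) and Cma1 (0.991 and 0.989). Ncr1 was most like Fcer1g (0.961), an adapter that the gate used, Rin3 and Aoah. Klrb1c was most like Atp1b1 (0.973), Gramd4 and Ncr1, and Klra7 most like Gas7 (0.949), Klrb1c and Rnf130. Klre1 was most like Chsy1 (0.91), Lrrk1 and Chd7, and Klrg1 most like Pcyt1a (0.851), Ube2l6 and Bmpr2, at a lower r than any other gene's nearest.

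In the treated libraries the receptor genes were higher per NK-gate UMI than in the control library, but not to the same extent in class II-low NK cells or with a stricter gate. In the whole gate, 35 of 35 log2 ratios over control were above 0, from 0.07 to 1.52, and 17 were past 2-fold. The median over all genes was 0.05 to 0.07 by library. The share of all genes above 0 is not given here for any gate. Stricter gates asked for more marker genes or UMIs (for NK cells 3 of the 5 genes Nkg7, Klrd1, Klrk1, Il2rb and Prf1). With them 0 ratios were past 2-fold and 15 of 35 lay below 0, over a range of -0.631 to 0.555. The share of all genes past 2-fold is not given for the stricter gates. In the whole gate, by library, 2 of 7 genes were past 2-fold in 2DG (8.52% of all genes) and 0 in 2FF (5.4%). There were 4 in anti-PD-L1 (11.4%), 5 in 2DG plus anti-PD-L1 (11.6%) and 6 in 2FF plus anti-PD-L1 (9.02%). The largest ratios were those of Klra4, at 1.52 in 2DG plus anti-PD-L1, and of Klrb1c and Klrg1, both at 1.4 in anti-PD-L1. In class II-low NK cells 31 of 35 ratios were above 0, from -0.21 to 0.76, with a median over all genes of 0.01 to 0.03. There 0 were past 2-fold, against 8.37%, 7.32%, 8.94%, 11.4% and 8.48% of all genes. The control side rests on 33 class II-low cells, with 13 Klrg1 and 86 Klrb1c UMIs. The difference between the whole-gate and class II-low ratios moved with the class II share of UMIs, 59.8% in control and 28% to 51.9% in the others.

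**Figure D2:**
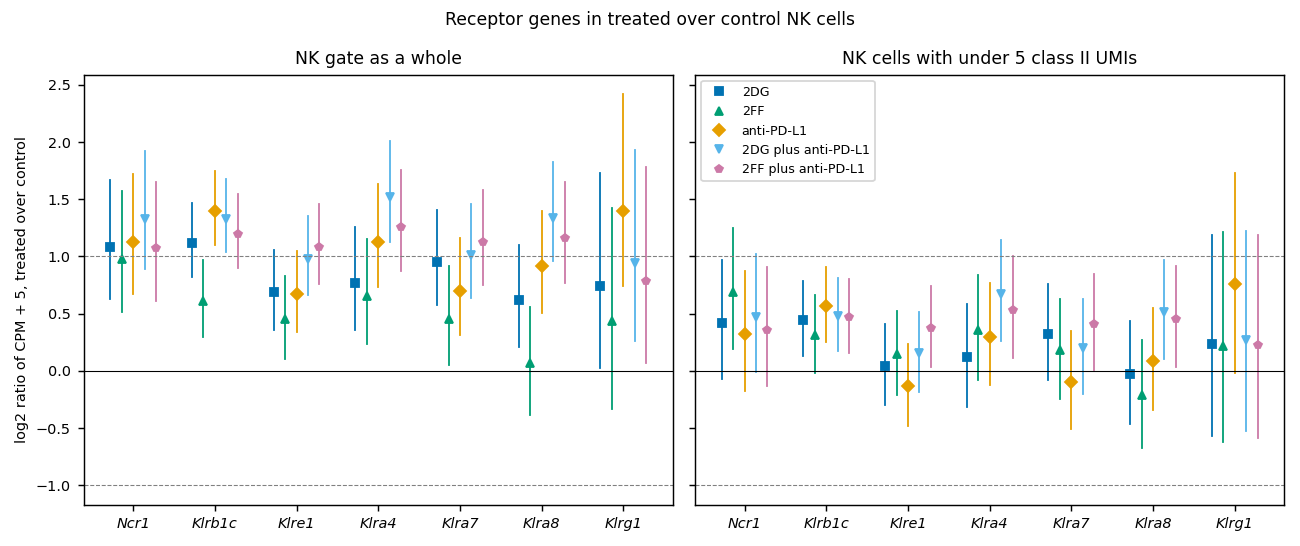
Log2 ratio of CPM + 5 for each receptor gene in 5 treated libraries over control, for the whole NK gate (left) and class II-low NK cells (right). Bars are 95% counting intervals and dashed lines mark 2-fold. In the left panel 17 of 35 points lie past 2-fold, in the right panel 0.

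Some ratios in class II-low NK cells had intervals that left out 0. The control class II-low cells held 328 CPM of the 3 neutrophil genes against 2.38 to 49.2 in the treated libraries, and 243 CPM of 5 macrophage genes against 62.8 to 152. A held-out NK marker was found in 84.8% of them, against 98.6% to 99.5% in the treated libraries. Those markers summed to 9587 CPM in control and 11990 to 12886 CPM in the treated libraries. Scrublet marked 15.2% of the control cells, against 0.658% to 5.91%. The part of these differences in the ratios was not tested. Klrb1c was above control in 2DG, anti-PD-L1 and both combinations, with log2 ratios of 0.45 (0.13 to 0.79), 0.56 (0.25 to 0.90), 0.48 (0.17 to 0.82) and 0.47 (0.15 to 0.81). Ncr1 was above it in 2FF, at 0.69 (0.19 to 1.25). Klra4 was higher in both combinations, at 0.68 (0.26 to 1.14) and 0.53 (0.11 to 1), and so was Klra8, at 0.51 (0.10 to 0.97) and 0.45 (0.03 to 0.92). In 2FF plus anti-PD-L1 the intervals of Klre1 (0.04 to 0.74) and Klra7 (0.01 to 0.85) also lay above 0. The interval of Klrg1 held 0 in all 5 comparisons. None of these intervals covers the spread between mice or the sampling of cells. Class II-low cells with a UMI held on average 5.93 Klra4, 5.08 Klra8 and 4.48 Klrb1c UMIs over all libraries.

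Set against anti-PD-L1 alone, which asks what the glycan inhibitor adds to the antibody, both combinations had lower Klrg1 and higher Klre1, Klra7 and Klra8 in NK cells, each by less than 2-fold. Klrg1 stood at 98.2 CPM in anti-PD-L1 and at 70.1 and 62.4 CPM with 2DG or 2FF added, log2 ratios of -0.459 (-0.775 to -0.196) and -0.615 (-0.985 to -0.328). Among class II-low NK cells the Klrg1 ratios were -0.49 (-0.80 to -0.22) and -0.53 (-0.89 to -0.23). Klre1 had ratios of 0.30 and 0.41 in the whole gate and of 0.28 (0.14 to 0.44) and 0.51 (0.36 to 0.67) in class II-low cells. Klra7 had 0.31 and 0.425, and 0.29 (0.13 to 0.47) and 0.51 (0.33 to 0.69) in class II-low cells. Klra8 had 0.43 and 0.25, and 0.42 (0.26 to 0.60) and 0.36 (0.18 to 0.55), and Klra4 0.39 and 0.135, and 0.38 (0.22 to 0.54) and 0.23 (0.06 to 0.41).

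For Ncr1 and Klrb1c the whole-gate ratios over anti-PD-L1 were 0.205 (0.0258 to 0.396) and -0.0636 (-0.273 to 0.142) for Ncr1, and -0.0693 (-0.182 to 0.0421) and -0.199 (-0.325 to -0.0775) for Klrb1c. The intervals of Ncr1 with 2DG and of Klrb1c with 2FF thus left out 0 in the whole gate, but not in class II-low cells, where the ratios were 0.15 (-0.03 to 0.34) and 0.04 (-0.17 to 0.25) for Ncr1, and of -0.08 (-0.20 to 0.03) and -0.10 (-0.22 to 0.03) for Klrb1c. No member passed 2-fold in either combination, where 0.847% and 0.986% of all genes did in the whole gate and 1.34% and 0.866% in class II-low cells. Over the design's gates and 11 other settings the NK ratios of Klrg1 ranged from -0.526 to -0.409 with 2DG and from -0.646 to -0.285 with 2FF, and those of Klre1, Klra7, Klra8 and Klra4 lay above 0 in each. As both combinations share the anti-PD-L1 library, their like directions are not independent. Klrg1 in the control, 2DG and 2FF libraries (79 to 93.8 CPM in class II-low cells) was near that of the combinations, so the anti-PD-L1 value of 137 CPM was the one that stood apart.

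**Figure D3:**
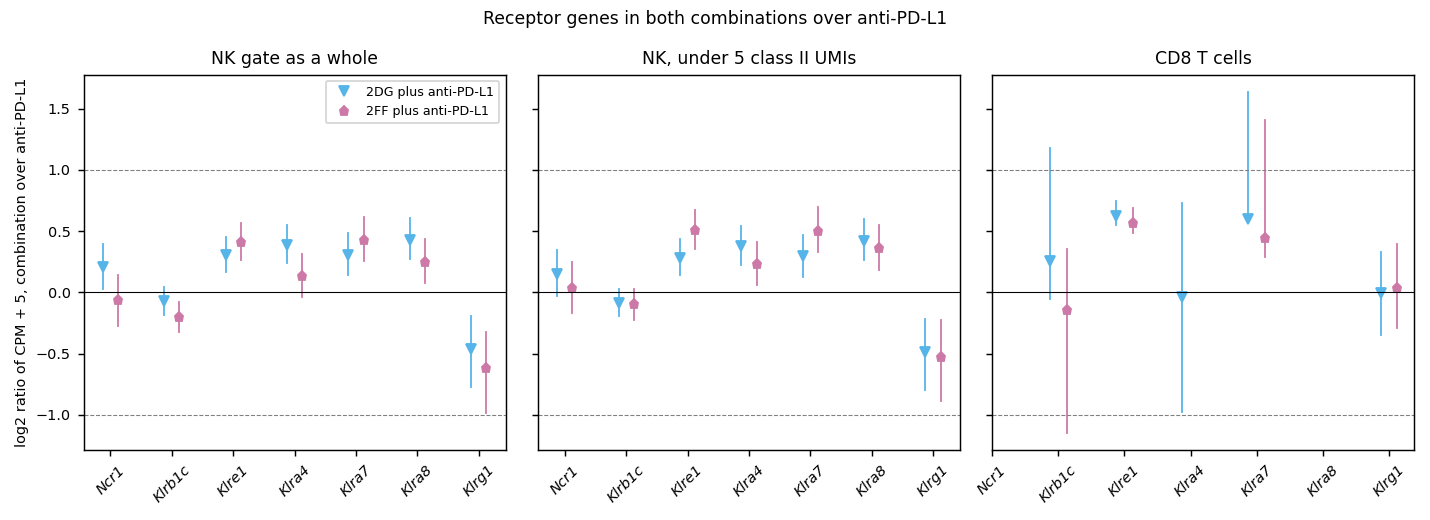
Log2 ratio of CPM + 5 for both combinations over anti-PD-L1 in the whole NK gate, class II-low NK cells and CD8 T cells, with 95% counting intervals. Genes under 50 UMIs in a comparison are left out. Klrg1 lies below 0 in both NK panels and Klre1 above 0 in all 3.

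Other receptor genes gave a mixed picture in the same comparison. Of 14 other Ly49 and Nkrp1 genes, 10 had enough UMIs for the first combination and 9 for the second in the whole gate, and 5 and 4 of them were above 0, with medians of 0.12 and -0.04 against -0.05 and -0.03 for all genes. Klri2, a partner of Klre1, had ratios of 0.42 and 0.26, and Klri1, the other partner, of -0.36 and -0.40. Klra9, which shares sequence with Klra8, had -0.07 and -0.32, against 0.43 and 0.25 for Klra8. Of the genes of late NK maturation, 1 of 11 was above 0 in each combination, with medians of -0.32 and -0.36. Of those of early maturation, 7 and 5 of 8 were above 0, with medians of 0.335 and 0.20. In class II-low NK cells 1 of 11 late genes was above 0 in each combination (medians -0.40 and -0.24), and 8 of 8 and 6 of 7 early genes were (medians 0.42 and 0.25). The other Ly49 and Nkrp1 genes stood at 5 of 10 and 6 of 8 above 0, with medians of 0.06 and 0.15. Of 13 other NK receptor genes 8 and 7 were above 0 in the whole gate, with medians of 0.09 in both, and of 6 adapter genes of these receptors 4 and 2 were, with medians of 0.03 and -0.12. None of these other Ly49, Nkrp1, NK receptor or adapter genes was past 2-fold in either combination.

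In CD8 T cells the combinations again had more Klre1 than anti-PD-L1, 193 and 185 CPM against 123 CPM, log2 ratios of 0.63 (0.55 to 0.75) and 0.56 (0.48 to 0.69). The share of cells with a Klre1 UMI was 41.4% in anti-PD-L1 and 49.9% and 55.2% in the combinations. These shares rise with depth, and the CD8 T cells had a median of 6083.5 UMIs in anti-PD-L1 and of 6062 and 8009 in the combinations. The control library stood at 172 CPM and the 2FF library at 226.5 CPM, and anti-PD-L1 was the lowest of the 6. Klrg1 stood at 15.2, 15.2, 10.6, 13.2, 13.2 and 13.7 CPM in CD8 T cells, and its ratios over anti-PD-L1 were -0.01 (-0.35 to 0.33) and 0.04 (-0.30 to 0.40). Klra7, at 4.08 CPM in anti-PD-L1, stood at 8.75 and 7.32 CPM in the combinations, with log2 ratios of 0.60 and 0.44. Without the added 5 its log2 CPM ratios were 1.1 (0.579 to 1.64) and 0.84 (0.287 to 1.41). The added 5 thus kept Klra7 with 2DG under 2-fold. By the log2 ratio of CPM + 5, no member passed 2-fold over anti-PD-L1, as 0.724% and 0.45% of all genes did. Over control, 2 of the ratios did, both those of Klra7, at -1.09 in 2FF and -1.3 in anti-PD-L1. They rest on 16 control UMIs in 5 cells. The background over control was 2.82%, 3.53%, 3.63%, 4.37% and 3.33% of all genes.

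The 3 Ly49 genes were read together in single NK cells. At least 1 of Klra4, Klra7 and Klra8 was found in 32.7%, 51.5%, 37.6%, 58.2%, 59.3% and 51.8% of the NK gate, and 2 or all 3 in 14.5%, 27.1%, 19.6%, 30.7%, 34.1% and 29.3%. In class II-low NK cells 2 or more were found in 24.2%, 35.4%, 30.9%, 36.9%, 41.4% and 38%. All 3 were found in 12.1%, 12.6%, 10.5%, 9.76%, 17.2% and 14.6% of those cells. The control share with 2 or more rests on 8 of 33 cells. The order of the libraries was not kept under other settings: with stricter gates control stood at 40%, next to 40.5% in 2DG plus anti-PD-L1, and after thinning of class II-low cells to 1000 UMIs 2FF plus anti-PD-L1 was highest, at 21.7% against 18.1% in 2DG plus anti-PD-L1.

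Each gene was found more often in class II-low cells that held another. Klra8 was found in 40% to 62.2% of cells with a Klra4 UMI and in 13% to 30.7% of those without. Klra7 was found in 48.2% to 64.7% of cells with Klra4 and in 30.4% to 40.6% without, and in 50.5% to 100% of cells with Klra8 and 19.2% to 40.1% without. The order held in 6 of 6 libraries for all 6 ordered pairs. Cells with more UMIs hold a UMI of any gene more often, so the comparison was repeated on class II-low cells thinned to 1000 UMIs, a setting added after the values were seen. In the control library no thinned cell held 2 of the genes. In the 5 treated libraries Klra8 was then found in 36.5% to 40.7% of cells with Klra4 and in 7.28% to 21.6% of those without. Klra7 was found in 20.3% to 37.5% of cells with Klra4 and in 17.5% to 22.3% without, higher with Klra4 in 5 of 6 libraries. The order of Klra7 and Klra8 held in 4 of 6 libraries only. In 2DG, Klra7 was found in 21.2% of cells with Klra8 and 25.8% without, and in anti-PD-L1 in 19.7% and 17.8%, with overlapping intervals. A UMI of one gene can also come from reads of a like copy, and the part of shared sequence in this pattern was not tested.

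**Figure D4:**
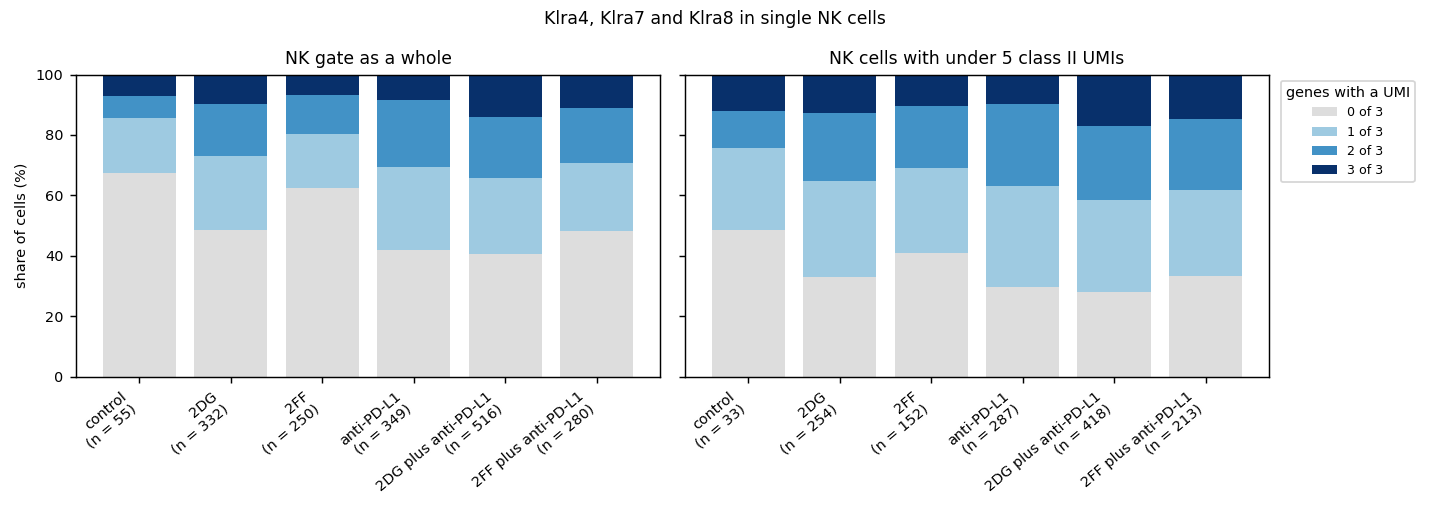
Share of NK cells with a UMI of 0, 1, 2 or all 3 of Klra4, Klra7 and Klra8 in each library, for the whole gate (left) and class II-low cells (right), with the number of cells under each bar. Cells with 2 or more make up 14.5% to 34.1% on the left and 24.2% to 41.4% on the right.

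Class II-low NK cells with a Klrg1 UMI differed from those without in genes of NK maturation. The split left 7, 88, 41, 111, 130 and 81 positive cells. A gene was counted when it lay on the same side in all 6 libraries, and 3.2% of 8727 genes were higher and 4.41% lower. Of 11 late maturation genes, 7 were higher in all 6 libraries and none lower, with a median log2 ratio of 0.58. Among them were Cx3cr1, a chemokine receptor of mature cells (1.34), the protease Cma1 (1.1), Ly6c2 (0.93), the lytic protein gene Prf1 (0.58) and Gzmb (0.42). Of 9 early maturation genes 5 were lower in all 6 and none higher, with a median of -1.63: Ltb (-2.19), Emb (-2.07), the interleukin receptor gene Il7r (-1.98), Cxcr3 (-1.54) and Cd27 (-1). Of 8 genes of type 1 innate lymphoid cells 3 were lower, Cxcr6 (-1.72), Cd200r1 (-1.7) and Tnfsf10 (-0.95). The median over all genes was -0.03. For thinned values cells were split anew by the Klrg1 UMIs left, expected in 3.52% to 11.2% of the whole gate against 14.5% to 32.1% before. Thinned values of this split are for the whole gate only, class II cells included. There Prf1 was higher in 6 of 6 libraries, Ly6c2 and Gzmb in 5, Cx3cr1 in 4 and Cma1 (-0.14) in 3. Ltb, Emb and Il7r were then higher in 0 of 6, Cxcr3, Cxcr6, Cd200r1 and Tnfsf10 in 1, and Cd27 in 2. In the whole gate Cxcr3, Cd200r1 and Cxcr6 stood at 1.7 to 6.7 CPM in positive cells, too low for thinned counts to decide a side. The thinned median over all genes was -0.29, and of 5157 genes 84 were higher and 506 lower in all 6 libraries. Thinned class II-low cells were not tested.

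Among the other receptor genes, Ncr1 (0.46), Klrb1c (0.54) and Klre1 (0.28) were higher with Klrg1 in all 6 libraries. Klra4 was lower in 5 of 6 libraries (median -0.41), and Klra7 (0.23) and Klra8 (0.12) were higher in 4 of 6. The leading higher genes were Sgk1 (1.49), Cx3cr1, Cdc20b (1.27), Cma1 and Gpx8 (0.94), and the leading lower ones Dscam (-3.7), Ltb, Igf1r (-2.09), St6galnac3 (-2.08) and Emb. In the 5 treated libraries the median UMIs of positive and negative cells were close, 4601 to 6253 against 4736.5 to 6405.5. In the control library they were 8070 and 2664.5, on 7 and 26 cells. In the whole gate 10.5% of 10031 genes were higher and 16.3% lower, and the leading lower genes there were Cyp7b1, Ifitm1, Il1r2, H2-Aa and H2-Ab1, the last 2 of them genes of the class II limit, with Cdc20b, Serpinb9b, Cma1, Ly6c2 and Ccl5 leading the higher ones. After thinning of the whole gate Ncr1 was higher in 6 of 6 libraries, Klrb1c in 5, Cdc20b in 4, and Klre1, Sgk1 and Gpx8 in 3. Dscam, Igf1r and St6galnac3 were then higher in 0 of 6.

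CD8 T cells with a Klrg1 UMI were few, 9, 98, 101, 95, 102 and 91. They were deeper than the others in each library, with medians of 6767 to 8963 UMIs against 5848 to 7884.5. Higher in all 6 libraries were 6.18% of 12753 genes and lower 6.89%. Of 8 effector genes, the granzyme genes Gzma (1.28) and Gzmb (0.94) were higher in all 6 libraries and Tbx21 lower (-0.42). Pdcd1, which encodes PD-1 (-0.65), Tox (-0.63) and Ctla4 (-0.46) were lower, 3 of 7 exhaustion genes, and Tcf7 (-1.62) and Bach2 (-0.98) were lower, 2 of 5 memory genes. Leading the higher genes were Rap1gap2 (1.56), Tnfrsf4, Gzma, Il1rl1 and Mt2, and the lower ones Basp1 (-2.47), H2-Aa, Tgm2, H2-Ab1 and Slc8a1. Thinned cells were split anew by the Klrg1 UMIs left, expected in 1.06% to 1.46% of CD8 T cells against 5.12% to 8.21% before. The thinned values thus rest on far fewer positive cells. After thinning, Gzma (1.42), Gzmb (0.80) and Rap1gap2 (1.58) were again higher in 6 of 6 libraries, whereas Tnfrsf4, Il1rl1 and Mt2 were not. The median log2 ratio over all genes was then -1.39, and of 8977 genes 23 were higher and 1130 lower in all 6 libraries. Tcf7 (0.145) was higher in 3 of 6 libraries after thinning. At 9.1 CPM in positive cells before thinning, it is too low for thinned counts to decide a side. Bach2 (-0.35) was higher in 0 of 6, and Pdcd1 (-1.64), Tox (-0.72), Ctla4 (-1.03) and Tbx21 (-0.65) in 1 of 6 each. Of these only Pdcd1 lay below the median over all genes. That median includes genes with no UMI in the few thinned positive cells, whose ratios cannot lie above 0. Setting a gene against it therefore cannot decide whether that gene was lower than background. Before thinning Klrd1 (-0.38) and Klrk1 (-0.16) were lower in all 6. After it Klrd1 (-0.60) was higher in 0 of 6 and Klrk1 (0.07) in 3 of 6, and both lay above the thinned median over all genes.

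Splitting CD8 T cells by Klre1 gave another set of genes. Klre1-positive cells numbered 48, 577, 1104, 659, 849 and 612. Higher in all 6 libraries were 10.1% of 12753 genes and lower 9.04%. Of 5 memory or stem genes 4 were lower in all 6 libraries, Tcf7 (-1.5), Lef1 (-1.14), Il7r (-0.69) and Bach2 (-0.59). Of 7 exhaustion genes 4 were higher, Lag3 (0.55), Pdcd1 (0.42), Havcr2 (0.41) and Entpd1 (0.24), and Tigit was lower (-0.05). Of the 8 genes of the effector list, Cx3cr1 (0.69) and Gzmb (0.30) were higher in all 6 libraries, and 2 lower, S1pr1 (-1.15), a receptor for egress from tissue, and Klf2 (-0.75), which promotes its expression.

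The partner gene Klri2 led the higher genes (1.74), before Gm156 (1.73), Ptprk (1.36), Synpo2 (1.31) and Gm47392 (1.27). Aff3 (-1.5), Tcf7, Fgf13 (-1.26), St6gal1 (-1.24) and Cmah (-1.22) led the lower ones. Other NK receptor genes of the same locus, Klrk1 (0.98), Klrd1 (0.84) and Klrc1 (0.65), were also higher in 6 of 6. Positive cells were deeper in each library, with medians of 6350.5 to 8610.5 UMIs against 5217.5 to 7330. Thinning also changed the groups, as a Klre1 UMI was then expected in 10.8% to 19% of CD8 T cells, against 39% to 55.9% before. Cells that lost their Klre1 UMIs counted as negative. The parts of depth and of this regrouping in the thinned ratios were not tested. Thinned to 1000 UMIs, Klri2 (0.54), Klrk1 (0.68), Klrd1 (0.65), Klrc1 (0.44) and Cx3cr1 (0.55) were higher in 6 of 6 libraries and Tcf7 (-1.23) lower in 6 of 6. Pdcd1 (0.26) and Lag3 (0.32) were then higher in 5 of 6, Gzmb (-0.21) and S1pr1 (-0.26) in 2 of 6, and Klf2 (0.03) in 3 of 6. Havcr2 (0.21) was higher in 4 of 6, Entpd1 (0.05) in 5 and Tigit (-0.11) in 2. Lef1 (-0.88), Il7r (-0.51) and Bach2 (-0.08) were each higher in 1 of 6. Of 8977 thinned genes, 116 were higher and 306 lower in all 6 libraries, with a median of -0.07.

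**Figure D5:**
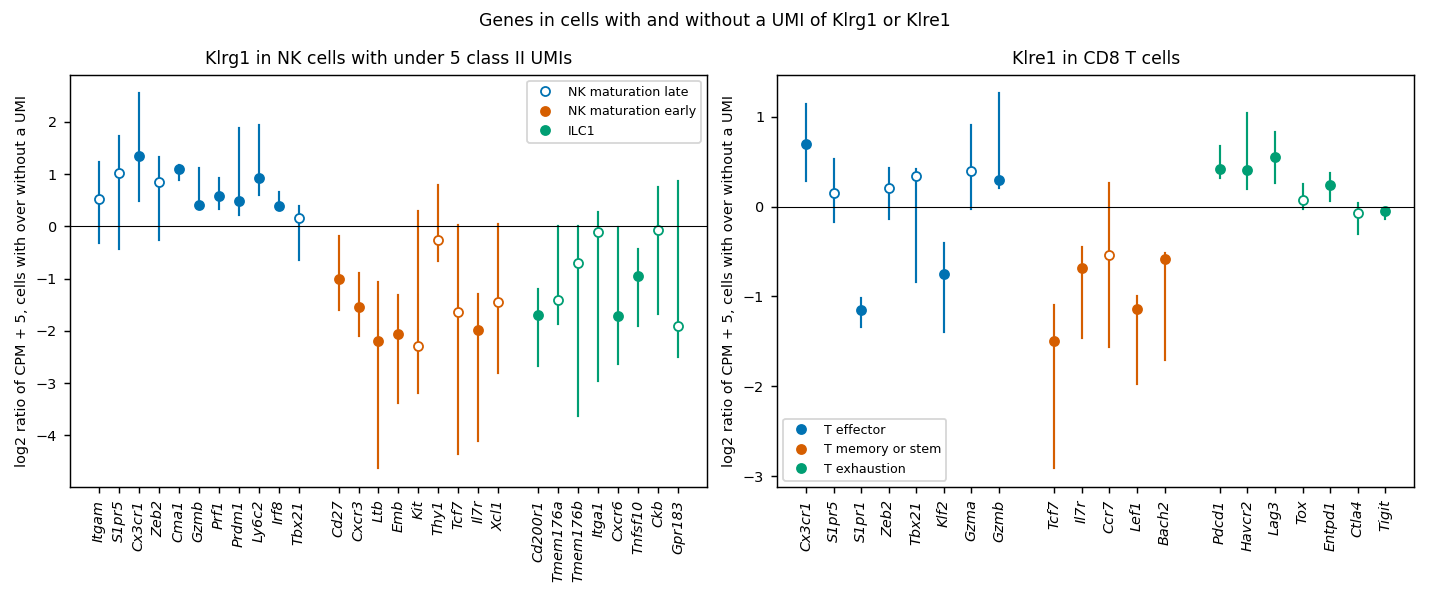
Median (circle) and range over 6 libraries (line) of the log2 ratio of CPM + 5 in cells with over cells without a Klrg1 UMI among class II-low NK cells (left) and a Klre1 UMI among CD8 T cells (right), for listed genes. Filled circles lie on 1 side of 0 in all 6 libraries, 7 of 11 late maturation genes above and 5 of 9 early ones below on the left.

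Among CD4 T cells, those with a Klrg1 UMI were largely Foxp3-positive, and Foxp3 (2.54), Nckap5 (3.43), Il1rl1 (2.87), Frmd5 (2.77) and Areg (2.76) led the 9.05% of 11466 genes that were higher in all 6 libraries. Ccl1 (-4.89), Tnfsf8, Dlg2, Hs6st3 and 8030451A03Rik led the 10.2% that were lower. Foxp3-positive cells with a Klrg1 UMI were deeper than those without in each library, with medians of 5647 to 7941.5 UMIs against 4738 to 7250. Within Foxp3-positive cells alone, 2.59% of 8664 genes were higher and 2.31% lower. Nckap5 (1.88), Fibp (1.47), Il1rl1, the interleukin-33 receptor (1.33), Ccdc34 and Specc1 led the first, and Zfp341 (-1.46), Zfp719, Sh3gl3, Ifit1 and Ssbp2 the second. Pdcd1 (-0.63) and Tox (-0.33) were lower in all 6 libraries, 2 of 7 exhaustion genes, and Prdm1 was higher (0.36). Thinned cells were split anew by the Klrg1 UMIs left, expected in 12.9% to 24.6% of them against 45.8% to 66.7% before. Thinned, Nckap5 was higher in 6 of 6 libraries, Il1rl1 in 5, Fibp in 4, Ccdc34 and Specc1 in 2 and Prdm1 in 0. Of the lower genes Zfp341, Zfp719 and Pdcd1 were then higher in 0 of 6, Sh3gl3 and Tox in 1, and Ifit1 and Ssbp2 in 2. Zfp341, Zfp719 and Sh3gl3 stood at 3.41 to 8.11 CPM in positive cells, too low for thinned counts to decide a side. Of 3142 genes, 48 were higher and 83 lower in all 6 libraries after thinning, with a median of -0.06.

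Across the libraries Klrg1 in Foxp3-positive CD4 T cells was lowest in control, at 137 CPM (105 to 175), and highest in anti-PD-L1, at 322 CPM (291 to 356). The values of 2DG plus anti-PD-L1 (208, 176 to 243) and 2FF plus anti-PD-L1 (283, 254 to 315) were below that of anti-PD-L1, as in NK cells, and the interval of 2FF plus anti-PD-L1 overlapped that of anti-PD-L1. The control value rests on 53 cells, and the intervals of 2DG (233, 212 to 255) and 2FF (261, 218 to 310) overlapped each other.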

How the data were processed

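The values deposited by the authors are unnormalized UMI counts of each gene in each cell of 6 single-cell libraries (10x 3′ chemistry), made with Cell Ranger 7.0.0 and the mm10 reference per the file headers and the methods, whereas the labels' processing notes name version 3.1.0. Whether intronic reads were counted is not given in the sources used here. Cells with at least 250 genes and at most 5% mitochondrial UMIs were kept. NK cells had no Cd3d, Cd3e, Cd3g, Cd4 or Cd8b1 UMI, at least 1 UMI of Tyrobp or Fcer1g, and UMIs of at least 2 of Nkg7, Klrd1, Klrk1, Il2rb and Prf1. T cells had at least 2 Cd3 UMIs and were divided by Trdc, Cd8a, Cd8b1 and Cd4. UMIs were summed per library and class. Ratios used log2(CPM + 5), genes with at least 50 UMIs and a 2-fold limit. A gene of a split by receptor UMI was counted when it lay on 1 side in all 6 libraries. No test was run, since each group is 1 mouse.

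Doublets were marked with Scrublet (scanpy 1.11.5) and kept, at 6.87% to 8.33% of barcodes. Named genes are the 7 receptors, members of hand-written lists (1 listed gene is not reported here), the 3 genes most like each receptor by Pearson's r and the 5 leading each way in each split. The members and lists were chosen with earlier results of these data known, and the class II limit, the held-out marker setting and all splits but those by Klrg1 in NK and CD8 T cells after the values were seen. The ratio and counting steps were tested on simulated data. Alternatives were other cell limits, stricter gates, doublets removed, equal weight per cell, thinning to 1000 UMIs, an added CPM of 1, a minimum of 10 UMIs and centring on the median gene. Splits by a receptor UMI were made anew on the thinned counts, so that a cell could change sides. Sequences came from RefSeq (GRCm38.p6), and coordinates from GENCODE M21, with Python 3.11.15, numpy 2.4.6, scipy 1.17.1, pandas 2.3.3 and biopython 1.88.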

Additional observations from a re-analysis of the deposited data

Results flagged for a closer look

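Klrb1c, Klre1 and Klra4 were read in cells that failed the limits on genes or mitochondrial UMIs, which no comparison used, above the level of the control library. In 4865 such cells of the treated libraries Klrb1c stood at 9.43 CPM (7.67 to 11.5, 100 UMIs), against 3.11 CPM (up to 7.26, 5 UMIs) in 580 such cells of the control library. Klre1 stood at 34.1 CPM (30.7 to 37.8, 362 UMIs) against 8.71 CPM (up to 14.6, 14 UMIs), and Klra4 at 7.83 CPM (6.23 to 9.7, 83 UMIs) against 1.87 CPM (up to 5.45, 3 UMIs). Klrg1 did not share this rise, with 19 UMIs in such cells of the control library and 15 to 25 in those of each treated library. Ncr1 had 5 UMIs in control and 5 to 11 in each treated library, Klra7 had 6 against 5 to 32, and Klra8 had 0 against 1 to 18. These last genes were not flagged. NK cells also made up more of the passing cells in the treated libraries, 2.71% to 5.72% against 0.606%. So did CD8 T cells, 14.2% to 21.4% against 1.36%. The part of both classes in these values was not tested.

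Klra7 and Klrg1 lay on opposite sides of the control library in NK and CD8 T cells. All 5 treated libraries were above control in the NK gate and below it in CD8 T cells, Klrg1 in 2DG with a log2 ratio of only -0.00042. The median log2 ratio in NK cells exceeded that in CD8 T cells by 1.81 for Klra7 and by 0.93 for Klrg1. The difference was not tested, and the CD8 T side rests on 16 Klra7 and 14 Klrg1 UMIs of the control library. In class II-low NK cells the Klra7 ratio of anti-PD-L1 over control was -0.09, so that the opposite sides did not hold there, and under stricter gates both genes had treated libraries below control in NK cells too.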

How the results depend on the processing

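No paired analysis was possible because each group is 1 library and the labels carry no replicate numbers. The 17 NK ratios over control past 2-fold became 0 under stricter gates, 1 in NK cells with a held-out NK marker and 0 in class II-low NK cells. The 2 such ratios in CD8 T cells became 0 under stricter gates and 0 after thinning. The share of all genes past 2-fold is not given for the stricter, held-out marker and thinned settings. The 2697 genes counted in the Klrg1 split of NK cells became 697 under stricter gates, 590 after thinning, 1365 with a held-out marker and 664 in class II-low cells. The median share of NK cells with 2 or more of Klra4, Klra7 and Klra8, 28.2%, became 36.6% under stricter gates, 11.9% after thinning, 36.2% in class II-low cells and 15% in class II-low cells after thinning. Of 74 ratios 24 changed sign under at least 1 of 11 settings, which gave 51 of them after thinning, 71 under stricter gates, 69 without doublets and 74 otherwise. Under stricter gates 15 of 35 NK ratios over control did, and in class II-low NK cells 4. Of ratios past 2-fold 2 changed sign, that of Klra7 in 2DG plus anti-PD-L1 over control to -0.0324 under stricter gates and that of Ncr1 in 2DG over control to -0.0686 after thinning. The cause was not tested. The held-out marker and class II settings were chosen after seeing the data. No receptor passed 2-fold in a combination over anti-PD-L1, in NK or CD8 T cells, under any setting run. Depth limits the control library most, with 33 class II-low NK cells and 123 CD8 T cells.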
